A study of Bos taurus with 8 samples.

Results

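The galectin transcripts of bovine blood are described here by the 6 genes that the deposited table names LGALS1, LGALS3, LGALS3BP, LGALS4, LGALS8 and LGALS9. They were chosen by symbol, out of 16966 genes named on the array, and each of their 13 probes, out of 43653, was read on its own. The arrays were single-colour (Cy3) Agilent arrays of total RNA from peripheral blood of female Holstein Friesian cows. In the CPE group (4 arrays) blood was held at 37 °C and 5% CO2 for 30 min together with a phenolic extract of cowpea leaf at 10 µg/ml. In the CONTROL group (4 arrays) blood from the same study was held at 37 °C and 5% CO2 for 30 min without the extract. The cows of both groups (n = 5 per the labels) were healthy and had received a probiotic for 60 days, and their age is not stated. RNA was pooled within each group, so arrays of one group may differ only technically: every error and p below measures the spread between arrays and not between cows.

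Galectins are lectins that bind beta-galactosides on glycoproteins and glycolipids. They lack a signal peptide, leave the cell by a route outside the classical secretory pathway, and crosslink glycoproteins on leukocytes, which alters adhesion, activation and survival. LGALS1 is a prototype galectin that forms dimers. LGALS3 is the chimera galectin, whose lectin domain carries a long flexible tail, and LGALS3BP is a secreted, heavily glycosylated protein that binds LGALS3. LGALS4, LGALS8 and LGALS9 are tandem-repeat galectins, with a pair of lectin domains in each chain. LGALS4 is known mainly from gut epithelium, LGALS8 marks damaged endosomes for autophagy, and LGALS9 is a ligand of the receptor HAVCR2 (TIM-3).

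In blood with CPE, LGALS3BP and LGALS4 were lower than in CONTROL blood, by 1.75-fold and 1.48-fold, in the area of the arrays where spots could be read on all 8 arrays. The only LGALS3BP probe nearly matches, over 30 bases, probes outside that gene, and their part in its signal was not tested. LGALS1 was 1.31-fold higher by the one of its 3 readable probes that passed the test. The groups overlapped at that probe, and its call was held in 7 of 19 other settings. LGALS9 was 2.19-fold higher by its probe A_73_101066, and LGALS8 did not pass the test, once the readable area was drawn somewhat wider. The area around the LGALS9 spot was also brighter on every CPE array than on any CONTROL array. Scaled over the whole array, the log2 change of LGALS9 was 0.04 (adjusted p = 0.937, limma), where the median change of all probes tested was −0.82. The other LGALS9 probe and LGALS3 lay in dark areas of most or all arrays and were not tested. Each group was hybridised on a slide of its own, read with its own version of the array grid, so that slide and treatment cannot be told apart in any of these differences.

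Large areas of every array were dim. A spot was called lit on an array when the 90th percentile of raw median signal over its 61 nearest spots came within 1.5 log2 units of that array's own 90th percentile of such values. Between 43.1% and 50.2% of spots were lit on the CPE arrays and between 31.9% and 40.7% on the CONTROL arrays, and 13080 spots were lit on all 8. Of lit spots 57.5% to 69.3% were well above background per array, and of the others 11.8% to 35.5%. The 75th percentile of processed signal was 135 to 280 intensity units on CPE arrays and 53.4 to 150 on CONTROL arrays. CPE array 3 was the array least like the others of its group (mean r of 0.975 over 7139 lit probes).

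The probe sequences decide what each value reads, so those that carry the results are shown from the deposited table, 5′ to 3′. For LGALS1, capitals mark the run of 38 bases that a readable probe (A_73_P099971) shares with a probe from a dark area (A_73_114897). Probe A_73_P100056 shares no run longer than 7 bases with either of them.
LGALS1 A_73_P100056: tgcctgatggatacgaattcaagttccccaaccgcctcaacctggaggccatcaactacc
LGALS1 A_73_P099971: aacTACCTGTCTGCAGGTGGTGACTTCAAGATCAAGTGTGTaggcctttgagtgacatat
LGALS1 A_73_114897: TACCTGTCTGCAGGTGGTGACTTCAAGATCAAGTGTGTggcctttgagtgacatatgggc
For LGALS3, LGALS8, LGALS9 and the second LGALS4 probe, the whole probe is given because each rests on a single readable or partly readable spot.
LGALS3 A_73_102756: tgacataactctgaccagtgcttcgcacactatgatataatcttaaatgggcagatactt
LGALS4 A_73_P262211: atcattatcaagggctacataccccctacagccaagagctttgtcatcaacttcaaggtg
LGALS8 A_73_114176: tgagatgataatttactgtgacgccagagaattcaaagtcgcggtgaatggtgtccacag
LGALS9 A_73_101066: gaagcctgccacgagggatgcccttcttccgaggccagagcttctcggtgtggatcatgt
The LGALS3BP probe and a probe for IPO5, an importin that carries proteins into the nucleus, share a 30-base window with 4 mismatches, and capitals mark the 26 bases that are the same.
LGALS3BP A_73_P040831: AAAGAGTTGGaCACaACTGAGcGACTAAcA
IPO5 A_73_P044571: AAAGAGTTGGgCACgACTGAGtGACTAAaA
The readable LGALS4 probe shares a run of 42 bases with a probe that carries no gene name, and the first 30 of them hold the hexamer AATAAA, in capitals.
LGALS4 A_73_P038986: ggaccctttctaagcccctAATAAAatgtc

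A search of all 43653 probes, on both strands, for windows of 30 bases with at most 5 mismatches found such near matches outside their own gene for the LGALS3BP probe (2 on the same strand and 2 on the opposite strand) and for this LGALS4 probe (1 on the same strand). The other 11 member probes had none. For the LGALS3BP probe they were the IPO5 probe and an unnamed probe on the same strand, and a probe for SSLP1 and an unnamed probe on the opposite strand. The letters AATAAA, read on the probe strand only and counted with no other motif, stood in 2 of the 13 member probes, LGALS4 A_73_P038986 and LGALS1 A_73_P034851, and in 9.35% of all probes.

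Of the 13 probes, 8 were well above background on all 8 arrays and 5 were also lit on all 8. These 5 are LGALS1 A_73_P034851, A_73_P099971 and A_73_P100056, LGALS3BP A_73_P040831 and LGALS4 A_73_P038986. LGALS4 A_73_P262211, LGALS8 A_73_114176 and LGALS9 A_73_101066 were well above background on all 8 arrays but were not lit on each of them. The remaining 5 were dark on most or all arrays: LGALS1 A_73_114897 and A_73_P099051, LGALS3 A_73_102756, LGALS4 A_73_P166562 and LGALS9 A_73_P376651. No spot was saturated.

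**Figure D1:**
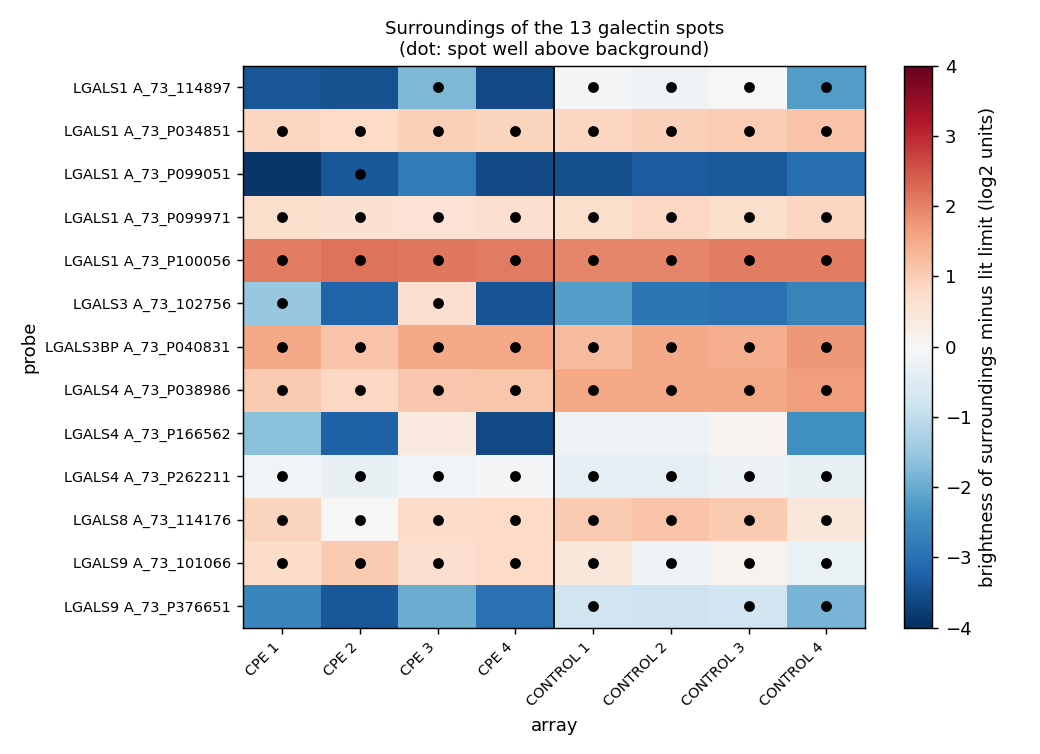
Brightness of the surroundings of each of the 13 galectin spots (down the page) on the 4 CPE and 4 CONTROL arrays (across), in log2 units relative to the limit of the lit area, with a dot where the spot itself was well above background. Rows of one warm colour are lit on all 8 arrays, and the blue rows of LGALS1 A_73_114897, LGALS3 and LGALS9 A_73_P376651 differ in brightness between arrays.

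Levels below are processed signal in intensity units. Scaled levels are log2 processed signal minus the 75th percentile of the array's lit probes, and changes are differences of scaled means, CPE minus CONTROL, and SE is the standard error in limma's fit over all 8085 lit probes that passed the filter on dim probes. An adjusted p is limma's two-sided p after Benjamini-Hochberg adjustment over all of those probes, with a threshold of 0.05.

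Of the 5 member probes tested in the lit area 3 were called, 1 higher and 2 lower in CPE. Among all probes tested there, 48.2% were called, 23.8% higher and 24.4% lower, and the groups did not overlap at 50.7%. A called galectin probe was therefore no rarity on these slides, and the count of members called is not a result about galectins.

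LGALS1 (transcript NM_175782) was read by 3 lit probes. Probe A_73_P100056 gave 9571, 10409, 3868 and 8613 on CPE arrays 1 to 4, against 6617, 6725, 6616 and 6178 on CONTROL arrays 1 to 4. The signal was above every CONTROL array on 3 CPE arrays and below all of them on CPE array 3. After scaling the levels were 3.68, 3.92, 3.29 and 3.65 in CPE and 3.13, 3.22, 3.22 and 3.41 in CONTROL, so that CPE array 3 fell within the CONTROL range. The change was 0.39 (SE 0.14, adjusted p = 0.0439, limma), the means being 3.63 ± 0.26 (SD) for 4 CPE arrays and 3.24 ± 0.12 for 4 CONTROL arrays.

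The other 2 lit LGALS1 probes did not pass the test. A_73_P099971 gave 7211, 6481, 2809 and 6742 on the CPE arrays, against 5263, 5402, 5075 and 4723 on the CONTROL arrays. Its groups overlapped after scaling through CPE array 3 alone, at 2.82 against 2.80 to 3.03 in CONTROL, and its change was 0.27 (SE 0.12, adjusted p = 0.0993, limma). Without CPE array 3 that change was 0.38 and its adjusted p 0.00383 (limma). A_73_P034851 gave 6425, 6150, 3496 and 6040 on the CPE arrays and 4929, 4947, 4892 and 5119 on the CONTROL arrays. Its scaled levels lay within 3.11 to 3.16 on all 4 CPE arrays and within 2.70 to 3.14 on the CONTROL arrays, the top value being CONTROL array 4. Its change was 0.29 (SE 0.11, adjusted p = 0.0518, limma), and 0.38 without CONTROL array 4 (adjusted p = 0.00350).

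All 3 lit probes had a higher CPE mean, but the call of A_73_P100056 was held in 7 of 19 other settings, and its change ranged from 0.22 to 0.52 over them. Of the 8 fits that left out an array, only those without CPE array 3 or CONTROL array 4 kept it. Scaled over the whole array the 3 probes had negative changes, of −0.73, −0.85 and −0.84, none of which passed the test (adjusted p = 0.275, 0.211 and 0.197, limma). The median change of all probes tested over the whole array was −0.82, against 0.024 in the lit area, so relative to that median the LGALS1 probes lay close to 0 there.

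LGALS3BP (NM_001046316) was lower in blood with CPE. Its probe gave 4134, 3093, 2484 and 3841 on the CPE arrays, against 7520, 6717, 6640 and 5493 on the CONTROL arrays. Every CPE array was below every CONTROL array, before any scaling. The scaled levels were 2.47, 2.17, 2.65 and 2.48 in CPE, against 3.31, 3.22, 3.22 and 3.24 in CONTROL, also without overlap. The change was −0.81 (SE 0.11, adjusted p = 0.000462, limma), the means being 2.44 ± 0.20 (SD) for 4 CPE arrays and 3.25 ± 0.045 for 4 CONTROL arrays. The call was held in 19 of 19 other settings of the lit area, with changes from −0.98 to −0.72.

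The IPO5 probe that resembles the LGALS3BP probe over 30 bases was lit on 3 arrays and well above background on 7. It gave 1135, 778, 1361 and 950 on the CPE arrays, against 1889, 1045, 1496 and 12.4 on the CONTROL arrays. These groups overlapped, on raw levels that are not compared further, since its spot was outside the area tested. Whether transcripts that hold the shared window add to the LGALS3BP signal was not tested.

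LGALS4 (NM_001034768) was lower in CPE as well. Probe A_73_P038986 gave 1531, 1203, 767 and 1411 on the CPE arrays, against 2083, 1980, 2049 and 1812 on the CONTROL arrays. Every CPE array lay below every CONTROL array. Scaled levels were 1.04, 0.81, 0.95 and 1.04 in CPE, against 1.46, 1.45, 1.52 and 1.64 in CONTROL. The change was −0.56 (SE 0.087, adjusted p = 0.00104, limma), with SDs of 0.11 in CPE and 0.09 in CONTROL (n = 4 each). It was called in 18 of 19 other settings, and without any scaling it was −0.74 with an adjusted p of 0.0583 (limma).

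The unnamed probe that shares 42 bases with LGALS4 A_73_P038986 (A_73_P494348) was lit and well above background on all 8 arrays. It gave 893, 818, 387 and 824 on the CPE arrays, against 1349, 1300, 1305 and 1226 on the CONTROL arrays. The groups did not overlap, and the change was −0.72 (SE 0.10, adjusted p = 0.000625, limma). As both probes hold the same bases, they are not independent readings.

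**Figure D2:**
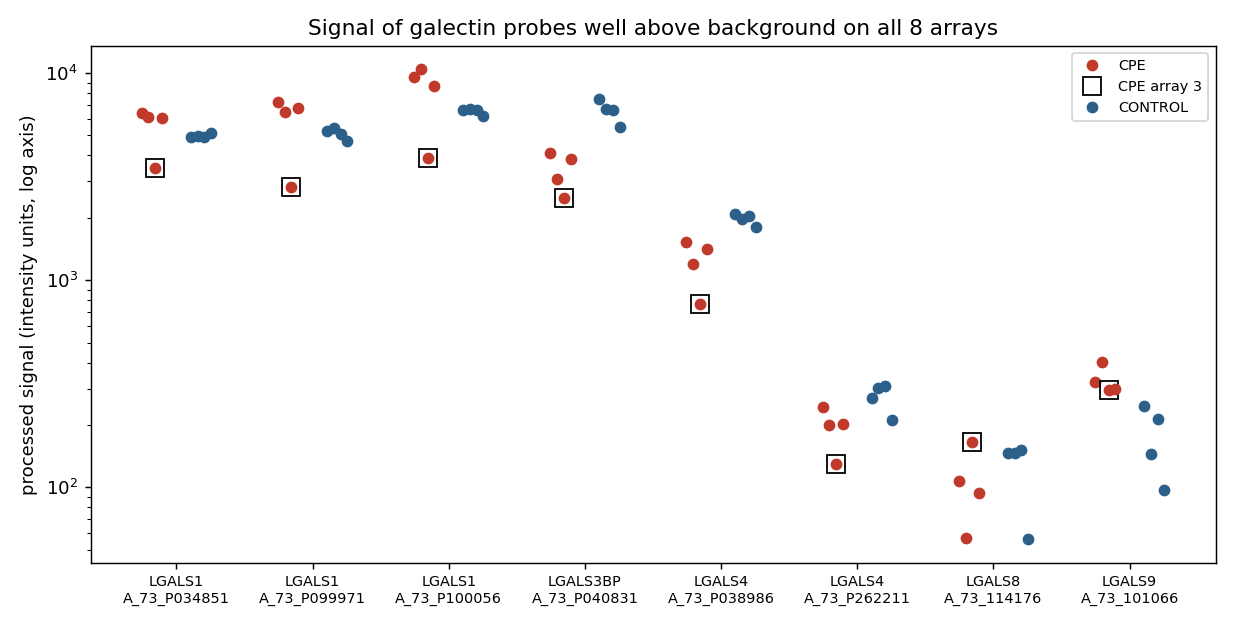
Processed signal (intensity units, log axis) of the 8 galectin probes well above background on all 8 arrays, CPE arrays left of CONTROL arrays for each probe, with CPE array 3 boxed; levels of different probes cannot be set against each other. At LGALS3BP and LGALS4 A_73_P038986 all 4 CPE arrays lie below the CONTROL arrays, and at LGALS1 CPE array 3 lies apart from the other CPE arrays.

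LGALS4 A_73_P262211, LGALS8 and LGALS9 A_73_101066 lay near the limit of the lit area, and they were lit on all 8 arrays with a limit of 2 log2 units. That area held 8974 tested probes, of which 46.0% were called, 21.7% higher and 24.3% lower in CPE. Their changes below are from that wider area and its own scaling. Its other settings were quantile normalisation, no scaling, normexp, the replicate number as a block and each array left out. Local centring was not run there.

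The second LGALS4 probe, A_73_P262211, gave 244, 199, 130 and 203 on the CPE arrays, against 269, 303, 309 and 212 on the CONTROL arrays. Scaled, all CPE arrays (−1.68 to −1.52) lay below all CONTROL arrays (−1.39 to −1.11), and the change was −0.38 (SE 0.096, adjusted p = 0.0127, limma). The spot lay from 0.07 to 0.38 log2 units outside the narrower limit on every array. The call was held in 10 of 12 other settings, the exceptions being no scaling (−0.52, adjusted p = 0.187) and normexp background correction (−0.17, adjusted p = 0.448). The first and this LGALS4 probe share no run longer than 6 bases, and both were lower in CPE.

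LGALS8 (NM_001045954) gave 108, 57.2, 166 and 94.2 on the CPE arrays, against 146, 146, 151 and 56.3 on the CONTROL arrays. CPE array 2 and CONTROL array 4 were low and CPE array 3 was high, so the groups overlapped. The 90th percentile of raw signal around the spot was 1102 on CPE array 2 and 1142.5 on CONTROL array 4, against 1806 to 2223 on the other 6 arrays. The scaled change was −0.087 (SE 0.46, adjusted p = 0.891, limma), and it ranged from −0.53 to 0.23 when an array was left out in turn. Scaled over the whole array it was −1.18 (SE 0.44, adjusted p = 0.0520, limma), against a median of −0.82 over all probes tested there.

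LGALS9 (NM_001015570) was higher in CPE. Probe A_73_101066 gave 321, 405, 296 and 300 on the CPE arrays, against 248, 145, 214 and 97.0 on the CONTROL arrays. Every CPE array exceeded every CONTROL array, and the scaled levels were −1.12, −0.66, −0.37 and −1.11 in CPE, against −1.51, −2.20, −1.64 and −2.43 in CONTROL. The change was 1.13 (SE 0.25, adjusted p = 0.00649, limma). Its call was held in 11 of 12 other settings, which did not include local centring. With normexp background correction the change was 0.67 with an adjusted p of 0.0570 (limma). The surroundings of the spot moved with it: their 90th percentile of raw signal was 1900, 2297.5, 1813.5 and 1806.5 on the CPE arrays, against 1480, 902.5, 1125 and 692 on the CONTROL arrays. The arrays with the dimmest surroundings, CONTROL 2 and 4, gave the lowest LGALS9 signal, and the part of the surroundings in the change was not tested. Scaled over the whole array the change was 0.04 (adjusted p = 0.937, limma). The median change of all probes tested there was −0.82, so relative to that median LGALS9 lay above 0.

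**Figure D3:**
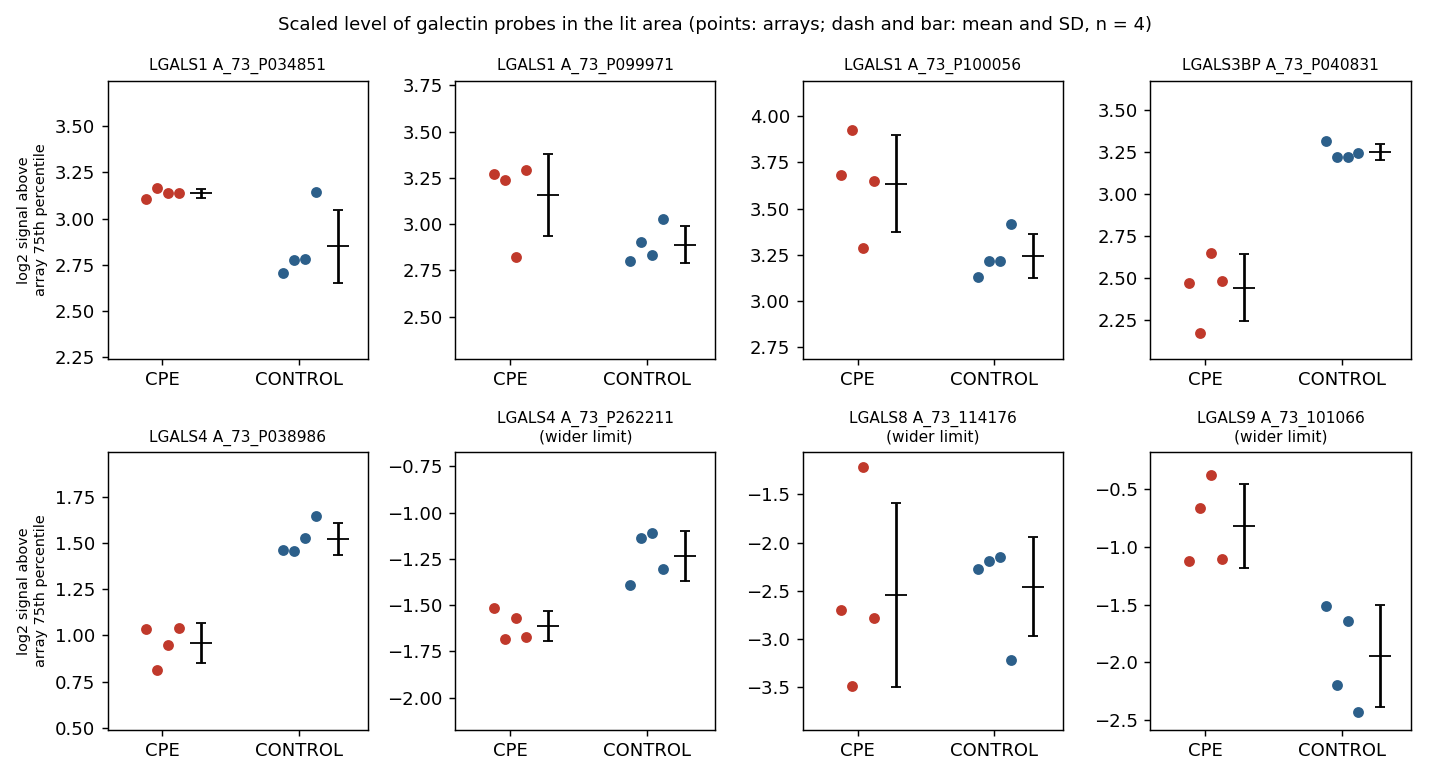
Scaled level (log2 signal above the array's 75th percentile) of the 5 galectin probes of the lit area and of the 3 probes of the wider area, with a point per array, CPE left and CONTROL right, and mean and SD (n = 4) as dash and bar. The groups are apart at LGALS3BP, at both LGALS4 probes and at LGALS9, and overlap at the 3 LGALS1 probes and LGALS8.

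LGALS3 (NM_001102341) was measured on few arrays. Its probe gave 270, 7.10, 1415 and 6.95 on the CPE arrays, against 9.48, 10.15, 8.03 and 9.15 on the CONTROL arrays. It was well above background on CPE arrays 1 and 3 and on no CONTROL array. The 90th percentile of raw signal around it was 399, 120, 1782 and 95.5 on the CPE arrays, against 231.5, 136, 129 and 131 on the CONTROL arrays, so the spot was bright where its surroundings were bright. CPE arrays 2 and 4 were not above background either. On those arrays and on every CONTROL array the value was a floor that recurs at other dim probes of the same array. Such values are not levels of LGALS3, so no fold is given. The part of the surroundings in these values was not tested.

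The LGALS1 probe A_73_114897, which shares 38 bases with A_73_P099971 and 32 with A_73_P034851, lay in a dark area. It gave 13.1, 7.10, 4733 and 6.95 on the CPE arrays, against 1403, 1213, 1418 and 47.0 on the CONTROL arrays. It was well above background on all 4 CONTROL arrays but on CPE array 3 alone, which exceeded every CONTROL array, so the groups overlapped and no fold is given. Both lit probes that share its bases had higher CPE means. The raw signal around it was 106, 100, 324.5 and 85 on the CPE arrays, against 1042, 915, 1017 and 178 on the CONTROL arrays, at the 90th percentile. Within both groups the array that stood apart in brightness around the spot also stood apart in the spot. It entered the whole-array test through the CONTROL group alone, and its call there, which was held in 2 of 14 other settings, is not read as a difference between the groups.

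The last LGALS1 probe, A_73_P099051, was designed to another transcript record (AB098791). It gave 3.72, 52.6, 25.3 and 8.44 on the CPE arrays, against 10.00, 10.15, 12.5 and 9.96 on the CONTROL arrays, and was well above background on CPE array 2 alone. LGALS4 A_73_P166562 was well above background on no array, with 3.72 to 19.7 in CPE and 9.15 to 28.3 in CONTROL. LGALS9 A_73_P376651 gave 4.76, 7.10, 42.6 and 6.95 on the CPE arrays, against 55.4, 41.8, 49.8 and 89.0 on the CONTROL arrays. It was well above background on 3 CONTROL arrays and on no CPE array, and no fold is given, since CONTROL array 2 did not measure it. The surroundings of that spot reached 105 to 286 in CPE and 231.5 to 618 in CONTROL, and their part in these values was not tested.

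**Figure D4:**
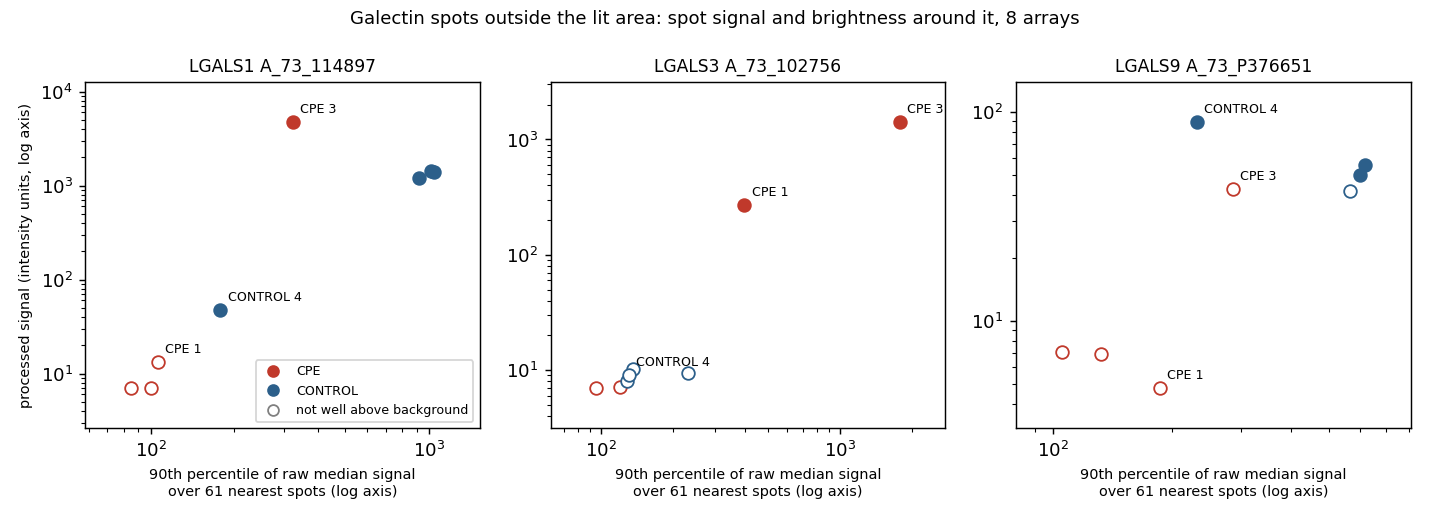
Processed signal of 3 galectin spots outside the lit area (log axis, intensity units) against the 90th percentile of raw signal over the 61 nearest spots (log axis), with a point per array, filled where the spot was well above background. On the CPE arrays LGALS1 A_73_114897 and LGALS3 are brightest where the surroundings are brightest, on CPE array 3.

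Over the whole array 9 of the 13 probes passed the filter and 4 were called, all lower in CPE: LGALS1 A_73_114897, LGALS3BP A_73_P040831, LGALS4 A_73_P038986 and LGALS4 A_73_P262211. The first of these passed the filter through CONTROL alone, with 3 of 4 CPE arrays not above background, and the others were well above background on all 8 arrays. Among all 14932 probes tested there 39.0% were called, 17.3% higher and 21.6% lower, and the groups did not overlap at 46.1%. LGALS3BP had a change of −1.93 (adjusted p = 0.0104, limma) and LGALS4 changes of −1.68 and −1.46 (adjusted p = 0.0261 and 0.0355), against the median of −0.82. Each LGALS4 call over the whole array was kept in 4 of 8 fits with an array left out, and lost without CPE array 2, CONTROL array 2, CONTROL array 3 or CONTROL array 4. In the authors' deposited table of log2 averages the difference CPE minus CONTROL was −1.93 for LGALS3BP and −1.68 and −1.46 for these LGALS4 probes. It was −1.17 for LGALS8, 0.04 for LGALS9 A_73_101066, −3.45 for LGALS9 A_73_P376651 and 1.90 for LGALS3. The same deposited table of the authors held −4.74 for LGALS1 A_73_114897 and −0.85 for A_73_P099971. The values for LGALS3, LGALS9 A_73_P376651 and LGALS1 A_73_114897 include arrays at background and are not read as changes. These averages come from the same arrays and nearly equal the whole-array changes of the fits, so they are no second measurement.

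Within the lit area, likeness between patterns was measured as the root mean square distance between scaled levels of 2 probes over the 8 arrays, each centred on its own mean. LGALS3BP and LGALS4 A_73_P038986 were 0.16 apart, and the 3 LGALS1 probes were 0.11 to 0.17 apart. LGALS1 and LGALS3BP were 0.58 to 0.67 apart. Closest to LGALS3BP among 5751 probes was FTSJ1, a tRNA methyltransferase, at 0.051, followed by ITGB7, a leukocyte integrin chain, and PFN1, an actin-binding protein, both at 0.054. Closest to LGALS4 was TSC2, an inhibitor of mTOR signalling, at 0.027. The LGALS1 probes were closest to ASPSCR1 (0.041), to PPIB, a peptidyl-prolyl isomerase of the endoplasmic reticulum (0.033), and to SDHAF3 (0.049).

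Other galectins, glycan receptors, glycan-building enzymes and proteins of damaged endosomes were read as the partners of these genes. Of 77 partner genes 69 were on the array and 33 were tested in the lit area, each by its brightest probe. Of these, 3 were called higher and 13 lower in CPE and 17 were not called, with a median change of −0.11 against 0.024 over all lit probes. Over all lit probes tested 48.2% were called, 23.8% higher and 24.4% lower, and no difference between the partners and other probes was tested.

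Of the other galectins LGALS2, a prototype galectin, changed by 0.23 (adjusted p = 0.404) and LGALSL, a galectin-like protein, by 0.13 (adjusted p = 0.356), and neither passed the test. Among 12 receptors and ligands tested, 2 were higher, 2 lower and 8 not called, beside 23.8% of all lit probes called higher and 24.4% called lower. VWF, a platelet and endothelial adhesion protein that carries galectin ligands, rose by 1.13 (SE 0.22, adjusted p = 0.00323, limma), and its scaled levels were −1.98 to −1.16 in CPE against −3.18 to −2.36 in CONTROL. With normexp its change was 0.76 (adjusted p = 0.0709). CD6, a T cell surface protein, rose by 0.55 (adjusted p = 0.0270), with −1.74 to −1.35 in CPE against −2.32 to −1.55 in CONTROL. HAVCR2, the TIM-3 receptor of LGALS9, fell by 0.30 (adjusted p = 0.0386), with −1.09 to −0.70 in CPE against −0.61 to −0.43 in CONTROL. With local centring that change turned to 0.10 (adjusted p = 0.0899). ITGB2, the beta chain of the leukocyte integrins, fell by 0.35 at its brightest probe (adjusted p = 0.0305), while its other 2 tested probes had changes of −0.03 and 0.42, neither called. Local centring took the brightest ITGB2 probe to −0.05 (adjusted p = 0.476). With an array left out, the call was kept in 2 of 8 fits for CD6, 2 of 8 for HAVCR2 and 3 of 8 for ITGB2.

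The enzymes that build galectin ligands had 1 gene higher, 8 lower and 4 not called of 13, with a median change of −0.29, beside 23.8% of all lit probes called higher and 24.4% called lower. MGAT2, which starts the second branch of complex N-glycans, rose by 0.51 (SE 0.084, adjusted p = 0.00143, limma), with 1.82 to 1.89 in CPE and 1.26 to 1.52 in CONTROL. FUT8, which adds the core fucose, fell by 0.86 (SE 0.10, adjusted p = 0.000254, limma), with −2.50 to −2.08 in CPE and −1.46 to −1.33 in CONTROL. B3GNT5, which starts lacto-series glycolipids, fell by 0.55 (adjusted p = 0.00703). ST3GAL6, a sialyltransferase, fell by 0.46 at its brightest probe (adjusted p = 0.00585), and its other tested probe changed by 0.10 (adjusted p = 0.838). With normexp FUT8 lost its call (−0.42, adjusted p = 0.143). Without scaling MGAT2 (0.33, adjusted p = 0.389), B3GNT5 (−0.73, adjusted p = 0.0595) and ST3GAL6 (−0.63, adjusted p = 0.0740) lost theirs. In these 4 genes, named for their large changes, the groups did not overlap at the called probe, as at 50.7% of all lit probes tested. The further enzymes called lower were MAN1A1, MAN2A1, MGAT4A, B4GALT1 and ST3GAL3, with changes from −0.43 to −0.23.

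Of the 6 tested genes of the response to damaged endosomes, which LGALS3 and LGALS8 are known to mark, 3 were lower and 3 not called. Beside them, 48.2% of all lit probes tested were called, 23.8% higher and 24.4% lower. ATG16L1, which directs LC3 lipidation, fell by 0.99 (SE 0.16, adjusted p = 0.00129, limma), with −3.67 to −2.91 in CPE against −2.26 to −2.12 in CONTROL. CHMP4B, a subunit of the ESCRT-III membrane repair filament, fell by 0.71 (adjusted p = 0.000162), and PDCD6IP (ALIX), which recruits it, fell by 0.72 (adjusted p = 0.000662). With normexp the calls of ATG16L1 (−0.29, adjusted p = 0.529) and PDCD6IP (−0.30, adjusted p = 0.419) were lost, and that of CHMP4B was held. CALCOCO2, the autophagy receptor that binds LGALS8, had a change of 1.08 with an adjusted p of 0.0688.

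**Figure D5:**
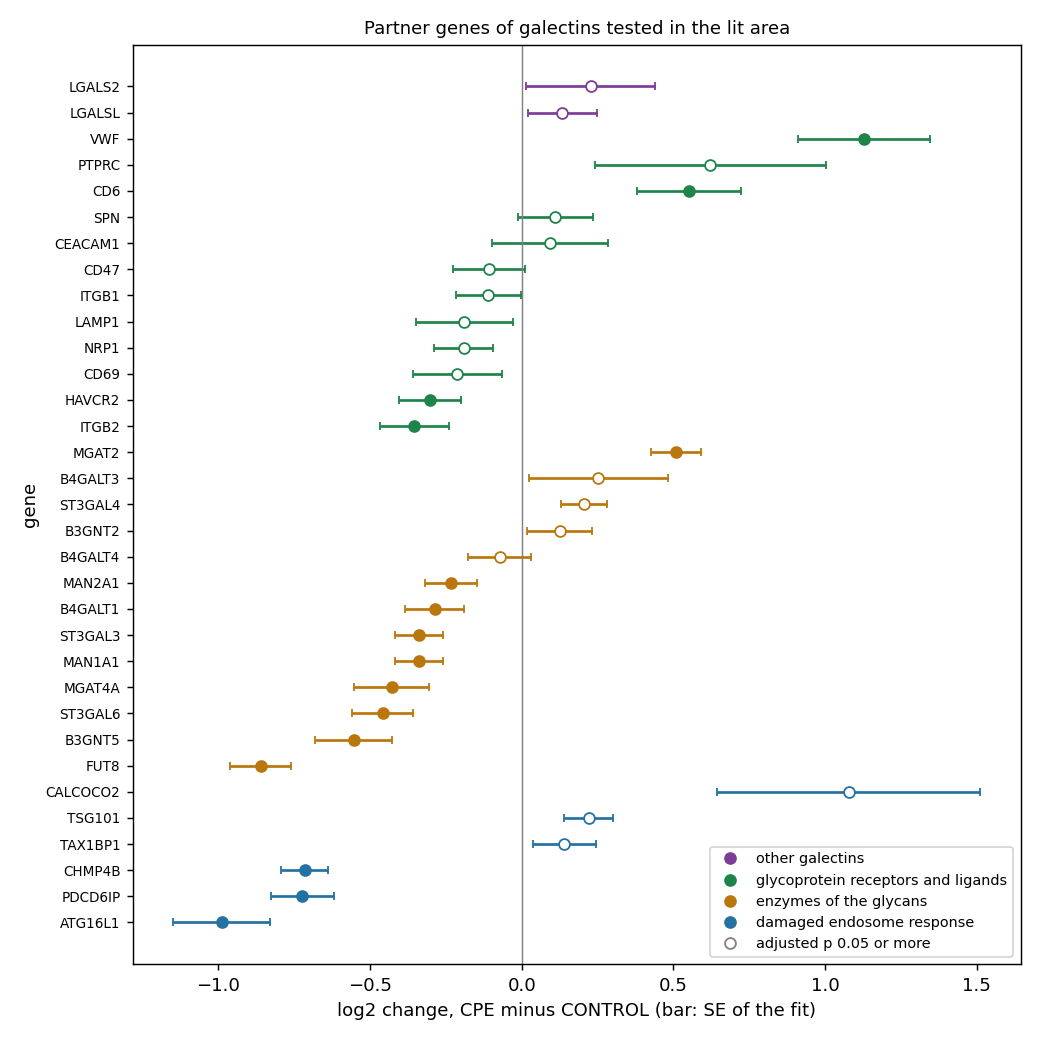
Change (log2, CPE minus CONTROL, bar: SE of the fit) of the 33 partner genes tested in the lit area, by list, filled where the adjusted p was under 0.05. The 8 enzymes, 3 endosome genes and 2 receptors that were called lower lie left of 0, and VWF, CD6 and MGAT2 lie right of it.

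Markers of blood cells moved between the groups as well. All 4 tested T cell genes (CD3D, CD3E, CD3G and CD5) rose, with a median change of 1.01, where 23.8% of all lit probes were called higher. Their summed level was 24.3 to 27.1 in CPE against 15.3 to 15.9 in CONTROL, in multiples of the array's 75th percentile. Of 3 monocyte genes CSF1R fell by 0.74 (adjusted p = 0.0155) and CD14 and LYZ were not called, with a summed level of 19.8 to 21.8 in CPE against 26.0 to 28.6 in CONTROL. Of 3 neutrophil genes CSF3R (−0.93) and CXCR2 (−1.12) fell and S100A12 (0.24) rose. Their summed level was 102 to 116 in CPE against 96.8 to 106 in CONTROL, and it is mostly that of S100A12. The platelet gene PPBP rose by 1.46 (adjusted p = 7.20e-05), none of 3 B cell genes was called, and HBB of red cells was not called. Fewer cells of a type and less RNA per cell cannot be told apart in whole blood, and the part of these cell types in the galectin changes was not tested.

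Since LGALS4 is known from epithelium, the epithelial markers were read beside it. EPCAM, CDH1 and VIL1 were well above background on no array, of which only VIL1 had a probe lit on all 8. KRT18 was well above background on 2 arrays, and KRT8 on all 8, with a change of −0.09 (adjusted p = 0.309). The summed level of the epithelial list, which is that of KRT8, was 1.23 to 1.33 in CPE and 1.33 to 1.42 in CONTROL. COL1A1, the tested gene of the fibroblast and endothelial list, fell by 0.70 (adjusted p = 0.000847), with a summed level of 1.56 to 1.95 in CPE against 2.57 to 3.09 in CONTROL. The leukocyte marker PTPRC was well above background on all 8 arrays.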

How the data were processed

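The authors read the signal intensity of each spot in Agilent Feature Extraction 10.10.1.1, per the submitters' processing notes and the file headers, and was deposited background-subtracted, with low values at a floor and no scaling between arrays. The log2 averages per group in the authors' deposited table carry no replicates and were used for names and as values to set beside the fits. From 43803 spots, control spots left out, log2 processed signal minus the array's 75th percentile was taken, the 12 to 73 spots per array marked as outliers were dropped, and repeated spots of one probe were averaged. A probe entered a test if 1 group or both had it well above background on every array. Groups were compared probe by probe with limma 3.58.1 in R 4.3.3 (lmFit, eBayes), in the lit area and over the whole array, after a check on simulated data.

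The members and gene lists, the lit area and its tests were chosen with earlier results of these data known. Probes were named through a transcript accession (26832), a file symbol found in the RefSeq table (6525) or as a synonym (131), or a file symbol alone (1387), and 8778 had no name. The array design and that table use different genome builds, so no positions are given. Named partners are, per list, up to 3 called rises and 3 called falls of largest size, taken from lit genes that each of the 8 arrays had well above background. Other partners and markers named were chosen after their values were seen. The replicate numbers were not taken as pairs, since the deviations of same-numbered arrays correlated at −0.12, −0.17, 0.29 and 0.41. Alternatives were quantile normalisation, no scaling, normexp (offset 50) on the median signal in place of the mean signal first planned, other filters and variance models, the replicate number as a block, each array left out, other limits and sizes of the lit area, and local centring. The wider limit combined with other settings was added after seeing the data. The number of arrays limits the precision.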

Additional observations from a re-analysis of the deposited data

Results flagged for a closer look

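Of 18 groups of 4 arrays examined for an array far from the rest, 3 held one, by Dixon's test at its 95% value. Chance flags about 1 in 20 groups. At LGALS1 A_73_114897, outside the lit area, CPE array 3 had a whole-array scaled log2 level of 4.08 where the other CPE arrays had −4.93 to −3.85, and CONTROL array 4 had −0.18 where the other CONTROL arrays had 3.24 to 3.55. At LGALS1 A_73_P099971, in the lit area, CPE array 3 had a scaled log2 level of 2.82 where the other CPE arrays had 3.24 to 3.30.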

How the results depend on the processing

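LGALS3BP was called in all 19 other settings of the lit area (−0.98 to −0.72) and in 15 of 15 over the whole array (−2.19 to −0.98), with −0.87 to −0.72 when an array was left out. LGALS4 A_73_P038986 lost its call without scaling (−0.74, adjusted p = 0.0583), and was −0.59 to −0.51 with an array left out. LGALS1 A_73_P100056 lost its call with quantile normalisation (0.36, adjusted p = 0.0716), no scaling (0.22), normexp (0.43), no filter (0.39, adjusted p = 0.0619), the limit of 2 (0.36, adjusted p = 0.0835), and in 6 of 8 fits with an array left out (0.29 to 0.39). Over all 8 such fits its change was 0.29 to 0.51. LGALS1 A_73_P034851 was called with quantile normalisation (0.27), the stricter filter (0.29, adjusted p = 0.0482), trended and robust variance (0.29, adjusted p = 0.0417), the limit of 1 (0.32) and local centring (0.39), with 0.24 to 0.38 when an array was left out. LGALS1 A_73_P099971 was called with the limit of 1 (0.30) and local centring (0.45), with 0.22 to 0.38 when an array was left out. HAVCR2 turned to 0.10 with local centring. The causes were not tested.

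No scaling gave 1480 called probes in the lit area, against 3900, with 1 member and 5 partners, and 1 member over the whole array. Normexp gave 1692 called probes and 6 partners in the lit area, and 3134 called probes with 2 members over the whole array, against 5818 and 4. The stricter filter gave 3690 called probes over the whole array. Members called in the lit area were 5 with the limit of 1 and 5 with local centring. With an array left out, called probes were 3267 to 4462 in the lit area and 3764 to 6876 over the whole array (lowest without CONTROL array 2), members called 2 to 4 and 1 to 5 (1 without CPE array 2, CONTROL array 3 or CONTROL array 4, and 2 without CONTROL array 2), and partners called 10 to 20 (10 without CPE array 4, CONTROL array 1 or CONTROL array 3). Calls higher and lower were 428 and 1052 without scaling and 3561 and 2150 with local centring in the lit area, against 1927 and 1973, and 3247 and 1145 without scaling over the whole array, against 2587 and 3231.

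With the replicate number as a block, LGALS1 A_73_P100056 had a change of 0.39 with an adjusted p of 0.0546, and no other lit galectin call changed, while the partners HAVCR2 and ITGB2 lost theirs. A fit with slide as a block could not be had, since no slide holds both groups.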
